A study of Homo sapiens with 84 samples.

Results

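Duvelisib and idelalisib are related kinase inhibitors, and their effects on gene expression were compared directly, without an untreated array in the contrast. The comparison used the 12 duvelisib and 12 idelalisib arrays of the series, 24 of 84 arrays in all, paired by cell line and time. RIVA, TMD8, SUDHL2 and U2932, established human lymphoma lines often assigned to the activated B-cell type (not stated in the labels), were each treated with duvelisib, idelalisib, ibrutinib, PQR309 (a dual inhibitor of PI3K and mTOR) or the solvent DMSO and sampled at 4, 8 and 12 h. The PQR309 arrays entered only the normalization and a fit of all 5 treatments. There was 1 array per line, treatment and time, so that each compound had 4 arrays at each time, 1 from each line, and the line was the replicate. The labels give no dose for any compound. The times were matched, but whether the doses were matched is not known, and the labels do not say whether cultures were separate.

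Phosphoinositide 3-kinases (PI3K) pass signals from the B-cell receptor and other surface receptors to AKT and mTOR, which drive growth and hold FOXO transcription factors out of the nucleus. PI3K delta, whose catalytic subunit is encoded by PIK3CD, is the main class I form in B cells, and PI3K gamma, encoded by PIK3CG, is a second form found mostly in blood cells. Idelalisib is known as a PI3K delta inhibitor and duvelisib as an inhibitor of PI3K delta and gamma. Both join a purine to a bicyclic core that carries a phenyl group, and they are described as propeller-shaped. Idelalisib has a quinazolinone core with a fluorine and an ethyl group on the carbon that links it to the purine amine, while duvelisib has an isoquinolinone core with a chlorine and a methyl group at that carbon. Ibrutinib, a covalent inhibitor of Bruton tyrosine kinase (BTK), is of another chemical class.

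Levels are log2 array intensities after background correction and quantile normalization, and a difference is duvelisib minus idelalisib, so that a difference of 1 is a doubling and a positive value means higher with duvelisib. Of 20046 genes with a probe, the 12557 whose brightest probe was in the brighter 50% of probes were tested. Raw array medians were 88.5 to 116.5 intensity units for duvelisib and 88.0 to 114.8 for idelalisib. Of 7 B-cell markers on the array, 6 (MS4A1, CD79A, CD79B, CD22, BLK and FCRLA) lay above a level of 6.30, which stands for detection, on all 24 arrays, and PAX5 lay below it on all 24. No T-cell marker of 8 and no stromal or endothelial marker of 7 was above that level on all arrays. On some arrays 4 of the T-cell markers were above it, most often LCK (16 arrays). The same held for 3 of the stromal or endothelial markers, most often PECAM1 (9 arrays). The myeloid marker FCGR3A was above that level on all 24 arrays, the only one of 8, and CD14 was above it on 19. The summed level of the 7 B-cell markers ran from 62.2 to 68.2 with duvelisib and from 61.2 to 67.3 with idelalisib.

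Over the 3 times together, no gene passed the test for a difference between duvelisib and idelalisib. The mean difference of each line was tested over the 4 lines with limma's moderated test, two-sided, and 0 of 12557 genes passed a Benjamini-Hochberg adjusted p of 0.05 (0% called). The smallest adjusted p was 0.963, and 586 genes (4.67%) had an unadjusted p under 0.05, 321 higher (2.56%) and 265 lower (2.11%). The intervals were narrow for most genes. The median half-width of the 95% interval was 0.14 log2, and the interval lay within 0.5 log2 on either side of 0 for 12414 genes (98.9%) and within 1 log2 for all 12557. The largest differences were 0.42 for MYB and -0.47 for DDX59, and none exceeded 0.5 in size. A p that misses the threshold does not show that the compounds act alike. The intervals bound the mean difference over these 4 lines, and 1 line departed from the others, as described further on.

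The overall size of the difference was set beside those of the other compound pairs. The root mean square difference over all tested genes, in 1 line at 1 time, ran from 0.170 to 0.317 log2 for duvelisib minus idelalisib, with a median of 0.226 over 12 line and time combinations. It ran from 0.171 to 0.364 (median 0.244) for ibrutinib minus idelalisib and from 0.151 to 0.391 (median 0.197) for ibrutinib minus duvelisib. The 2 PI3K inhibitors were the closest pair in 5 of the 12 combinations, closer than ibrutinib and idelalisib in 6 and closer than ibrutinib and duvelisib in 6. The 3 ranges overlapped. In SUDHL2 the mean over times was 0.277 for duvelisib minus idelalisib, 0.229 for ibrutinib minus idelalisib and 0.182 for ibrutinib minus duvelisib, and in RIVA it was 0.203, 0.252 and 0.291 in the same order. The pairs share arrays, and the order of the pairs was not tested.

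**Figure D1:**
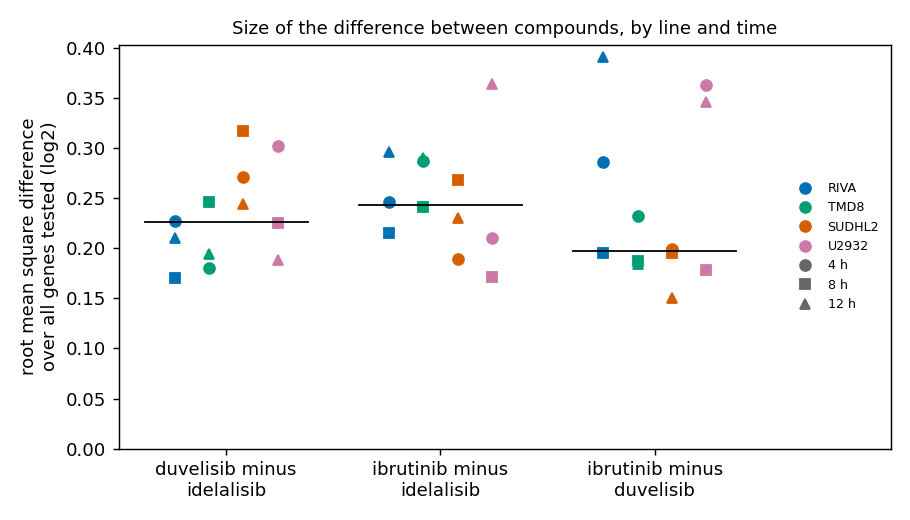
Root mean square difference over all tested genes (vertical axis, log2) for each of 3 compound pairs, 1 point per line (colour) and time (shape), with the median as a bar. The ranges of the pairs overlap, with medians of 0.226, 0.244 and 0.197.

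Across the 3 compound pairs tested over 3 times, no gene passed in any. For ibrutinib minus idelalisib, 0 of 12557 genes passed (smallest adjusted p = 0.614, limma), with 950 at an unadjusted p under 0.05 (7.57%; 2.78% higher and 4.79% lower). For ibrutinib minus duvelisib, 0 passed (smallest adjusted p = 0.194, limma), with 1375 at an unadjusted p under 0.05 (11.0%; 4.71% higher and 6.24% lower). With p-values adjusted over all genes and the 3 pairs together, 0 passed and the smallest adjusted p was 0.479. Without the 12 h arrays, 344 genes passed for ibrutinib minus duvelisib (288 higher and 56 lower), and 0 passed for duvelisib minus idelalisib.

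The 10 genes with the smallest unadjusted p among those with a positive mean difference were CLECL1, RIPOR2, TNFRSF17, ADTRP, MYB, EBF1, TNFRSF21, JCHAIN, LAPTM5 and MFNG. None passed the test (adjusted p = 0.963 for each, limma). Their differences ran from 0.27 to 0.42 log2, with a positive value in each of the 4 lines. Over all genes, 902 (7.18%) were higher and 844 (6.72%) lower in all 4 lines, so an equal sign in the 4 lines is common. EBF1 is a transcription factor of B-cell identity, MYB a transcription factor of blood progenitors that is also active in cycling B cells, JCHAIN joins immunoglobulin polymers, and TNFRSF17 encodes BCMA, the receptor for survival signals of plasma cells. LAPTM5 is a lysosomal protein of blood cells, and MFNG modifies Notch receptors.

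MYB (probe ILMN_1711894) was the gene with the highest difference. With duvelisib at 4, 8 and 12 h its log2 level was 10.68, 11.18 and 10.52 in RIVA, 9.26, 8.74 and 9.17 in TMD8, 8.01, 7.55 and 7.93 in SUDHL2, and 9.43, 9.35 and 9.40 in U2932. With idelalisib it was 10.34, 10.92 and 10.45 in RIVA, 8.69, 8.48 and 8.53 in TMD8, 7.28, 7.23 and 7.07 in SUDHL2, and 8.73, 9.32 and 9.19 in U2932. The duvelisib array was higher in all 12 pairs, while the levels of the 2 compounds overlapped across lines because the lines differ more than the compounds. The mean difference was 0.42 ± 0.08 (SE, n = 4 lines, 95% interval 0.24 to 0.59, adjusted p = 0.963, limma), and it was 0.59 at 4 h, 0.22 at 8 h and 0.44 at 12 h. Line means were 0.22 in RIVA, 0.49 in TMD8, 0.64 in SUDHL2 and 0.31 in U2932. MYB averaged 9.27 with duvelisib, 8.85 with idelalisib, 9.03 with ibrutinib and 9.42 on the DMSO arrays of these lines.

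EBF1 (probe ILMN_1778681) was also higher on the duvelisib array in 12 of 12 pairs. With duvelisib at 4, 8 and 12 h it was 7.82, 8.20 and 8.42 in RIVA, 9.56, 10.04 and 10.39 in TMD8, 9.41, 10.02 and 9.61 in SUDHL2, and 10.02, 9.75 and 9.83 in U2932. With idelalisib it was 7.58, 7.76 and 8.28 in RIVA, 9.38, 9.93 and 10.13 in TMD8, 8.97, 9.37 and 9.44 in SUDHL2, and 9.44, 9.52 and 9.54 in U2932. In U2932 every duvelisib array was above every idelalisib array, and in the other lines the compounds overlapped. The mean difference was 0.31 ± 0.06 (SE, n = 4 lines, 95% interval 0.18 to 0.45, adjusted p = 0.963, limma). The ibrutinib level, 9.41 on average, was close to the duvelisib level of 9.42 and above the idelalisib level of 9.11, and ibrutinib minus duvelisib was -0.01 (95% interval -0.18 to 0.15).

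CLECL1, RIPOR2, ADTRP, TNFRSF21 and JCHAIN were likewise higher with duvelisib in 12 of 12 pairs, LAPTM5 and MFNG in 11 and TNFRSF17 in 10. Of all tested genes, 22 (0.175%) were higher in every pair and 14 (0.111%) lower in every pair. The 12 pairs share 4 lines and are not independent, and the genes were picked by a p that is small where the lines are alike. JCHAIN averaged 9.80 with duvelisib, 9.46 with idelalisib, 9.49 with ibrutinib and 9.81 with DMSO, and its difference was 0.34 with a 95% interval of 0.19 to 0.49. TNFRSF17 differed by 0.49 at 4 h, 0.09 at 8 h and 0.27 at 12 h.

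**Figure D2:**
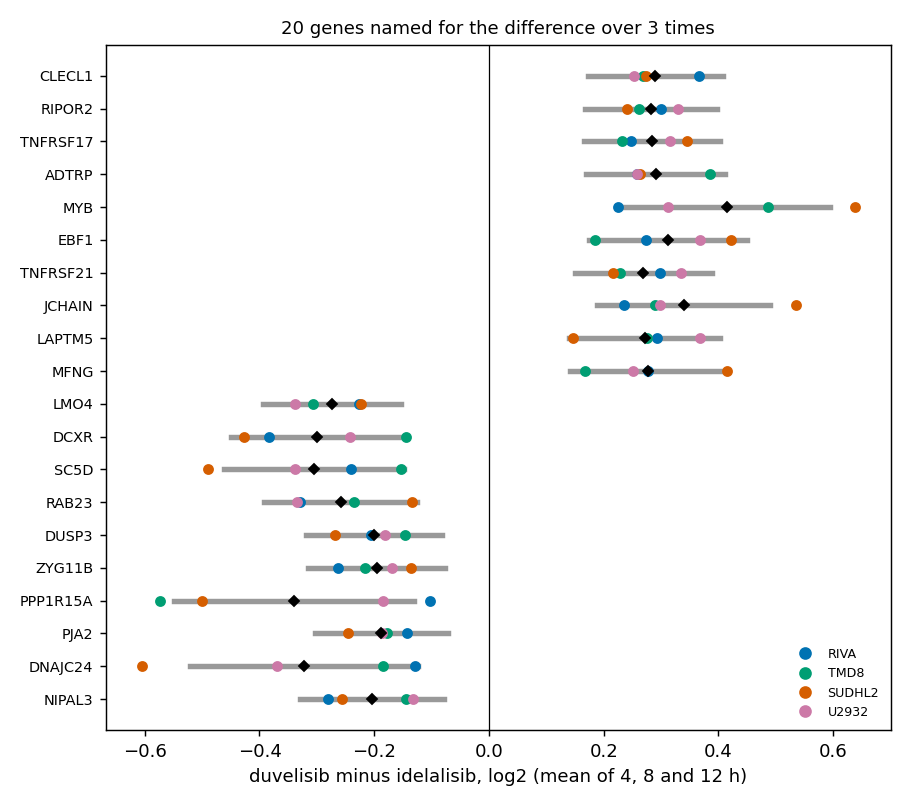
Duvelisib minus idelalisib (horizontal axis, log2, mean of 3 times) for the 10 genes named as higher and the 10 named as lower, 1 coloured point per line, with the mean over 4 lines as a diamond and its 95% interval as a grey bar. The genes were chosen by the smallest unadjusted p in each direction, and none passed the test.

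The 10 genes with the smallest unadjusted p among those with a negative mean difference were LMO4, DCXR, SC5D, RAB23, DUSP3, ZYG11B, PPP1R15A, PJA2, DNAJC24 and NIPAL3, with differences of -0.34 to -0.19 log2 and none past the test (adjusted p = 0.963 for each, limma). SC5D, an enzyme of the last steps of cholesterol synthesis, averaged 8.96 with duvelisib, 9.27 with idelalisib, 9.23 with ibrutinib and 8.97 with DMSO, and differed by -0.31, -0.30 and -0.30 at 4, 8 and 12 h. LMO4, a LIM-domain transcriptional cofactor, differed by -0.42, -0.03 and -0.37. DUSP3 is a phosphatase of MAP kinases, PJA2 an E3 ubiquitin ligase, and DNAJC24 a J-domain protein of diphthamide synthesis. RAB23, a small GTPase of vesicle transport, and NIPAL3, a membrane protein, were lower with duvelisib in all 12 pairs. All 20 named genes kept their sign under each of the 16 other settings tried. They were picked on the same arrays and have 1 sign in all 4 line means. This outcome was therefore largely fixed in advance and adds no support.

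PPP1R15A (probe ILMN_1659936), which encodes GADD34, the stress-induced subunit that directs a phosphatase to the translation factor eIF2 alpha, was one of the 10. Its log2 level with duvelisib at 4, 8 and 12 h was 8.71, 9.22 and 8.90 in RIVA, 11.10, 10.48 and 11.11 in TMD8, 9.83, 8.88 and 9.50 in SUDHL2, and 9.97, 9.69 and 9.53 in U2932. The idelalisib arrays were at 8.73, 9.57 and 8.83 in RIVA, 11.56, 11.12 and 11.74 in TMD8, 10.05, 9.45 and 10.22 in SUDHL2, and 9.73, 10.32 and 9.69 in U2932. The duvelisib array was lower in 10 of 12 pairs, the exceptions being RIVA at 12 h and U2932 at 4 h. In TMD8 every duvelisib array was below every idelalisib array. The mean difference was -0.34 ± 0.09 (SE, n = 4 lines, 95% interval -0.55 to -0.13, adjusted p = 0.963, limma), with -0.12 at 4 h, -0.55 at 8 h and -0.36 at 12 h.

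PPP1R15A averaged 9.08 with ibrutinib, against 9.74 with duvelisib, 10.08 with idelalisib and 10.19 with DMSO. Ibrutinib minus idelalisib was -0.9996 (95% interval -1.29 to -0.71, adjusted p = 0.614, limma) and ibrutinib minus duvelisib was -0.66 (95% interval -0.85 to -0.47, adjusted p = 0.194, limma). Neither passed. With all 5 treatments fitted together, PPP1R15A was the only gene called for ibrutinib minus idelalisib (adjusted p = 0.00419, limma). With the 12 differences of each pair and the line as a random block it was called for ibrutinib minus idelalisib (adjusted p = 3.11e-04, limma) and for ibrutinib minus duvelisib (adjusted p = 0.0160, limma), but no gene was called for duvelisib minus idelalisib under either. The random block takes the times of a line as correlated observations, although they may share a culture, so its p-values are read with that limit.

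TIPARP, an aryl hydrocarbon receptor target that in turn limits that receptor, was lower with duvelisib in 12 of 12 pairs. Its duvelisib arrays at 4, 8 and 12 h were at 8.71, 8.80 and 8.26 in RIVA, 11.21, 10.32 and 10.74 in TMD8, 10.06, 10.09 and 9.95 in SUDHL2, and 9.97, 9.86 and 9.87 in U2932. Its idelalisib arrays were at 8.92, 9.19 and 8.78 in RIVA, 11.25, 10.75 and 10.94 in TMD8, 10.31, 10.15 and 10.18 in SUDHL2, and 10.07, 10.004 and 9.96 in U2932. The gaps were small beside the spread between lines. The mean difference was -0.22 ± 0.06 (SE, n = 4 lines, 95% interval -0.36 to -0.08, adjusted p = 0.963, limma), and ibrutinib minus idelalisib was -0.80 (95% interval -1.15 to -0.46, adjusted p = 0.614, limma). Among the receptor's other targets, CYP1A1, which oxidises aromatic compounds, differed by 0.05 and AHRR, the receptor's repressor, by -0.01, but their mean levels of 6.16 to 6.22 were below the level that stands for detection, and TMD8 was the only line with means above it, so that little can be read from these values. CYP1B1 was not among the tested genes.

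**Figure D3:**
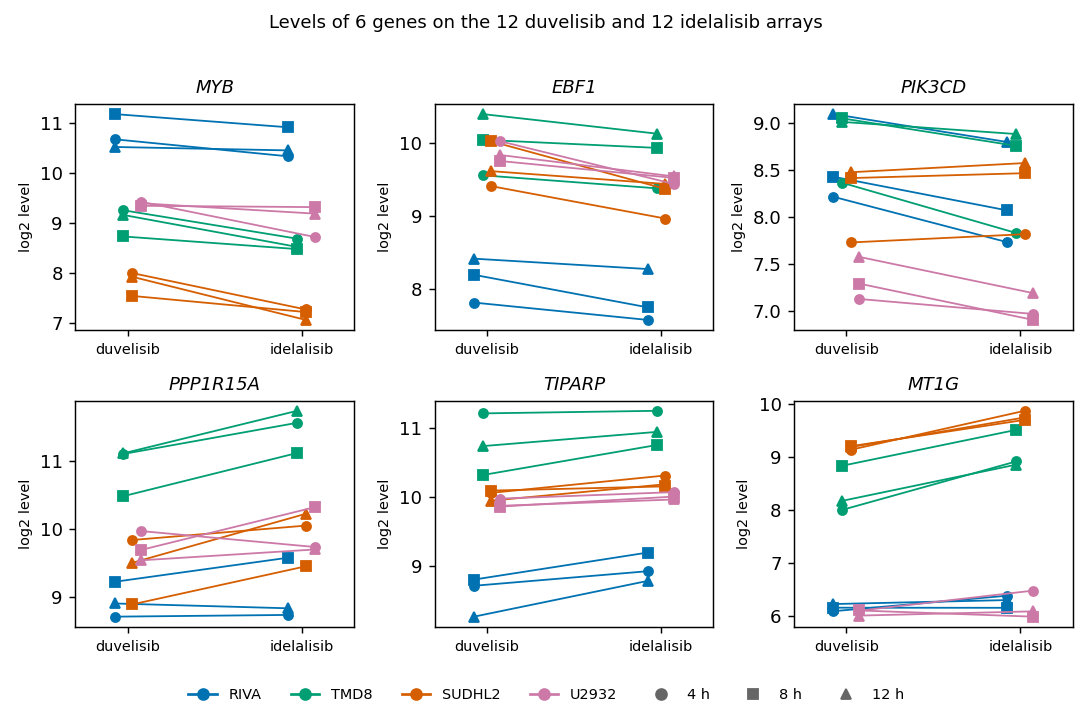
Log2 level (vertical axis) of 6 genes on the 12 duvelisib arrays (left) and the 12 idelalisib arrays (right), with lines joining arrays of the same cell line (colour) and time (shape). MYB and EBF1 were higher with duvelisib in 12 of 12 pairs and TIPARP lower in 12 of 12, while PIK3CD was higher in 9 and PPP1R15A lower in 10.

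The genes of the PI3K pathway itself were described next, since the compounds differ in the PI3K forms they are known to inhibit. Of 23 tested members, 0 were called (0% of all genes), 8 had a positive difference, and the median was -0.02 against -0.002 over all genes. All 23 had a 95% interval within 0.5 log2 on either side of 0. PIK3CG differed by -0.03 (95% interval -0.17 to 0.12), PIK3CB, the beta catalytic subunit, by -0.06, AKT1 by 0.04 and MTOR by -0.11. PIK3CA, the alpha catalytic subunit, was not among the tested genes. PIK3C2A, a class II PI3K, differed by -0.19 (95% interval -0.31 to -0.07).

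PIK3CD (probe ILMN_1766275), the gene of the form both compounds inhibit, was higher with duvelisib in 9 of 12 pairs. With duvelisib at 4, 8 and 12 h its log2 level was 8.22, 8.43 and 9.10 in RIVA, 8.37, 9.05 and 9.02 in TMD8, 7.73, 8.42 and 8.48 in SUDHL2, and 7.13, 7.29 and 7.58 in U2932. With idelalisib it was 7.73, 8.07 and 8.80 in RIVA, 7.83, 8.76 and 8.89 in TMD8, 7.82, 8.47 and 8.58 in SUDHL2, and 6.97, 6.90 and 7.19 in U2932. The 3 pairs that went the other way were those of SUDHL2. The difference was 0.38 in RIVA, 0.32 in TMD8, -0.08 in SUDHL2 and 0.31 in U2932, with a mean of 0.23 (95% interval 0.04 to 0.43, adjusted p = 0.963, limma). Ibrutinib minus duvelisib was 0.02 for PIK3CD (95% interval -0.20 to 0.23), so that idelalisib gave the lowest mean of the 4 treatments, with 8.23 for duvelisib, 8.00 for idelalisib, 8.25 for ibrutinib and 8.23 for DMSO.

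Among the 19 tested parts of B-cell receptor signalling, 0 were called and 13 had a positive difference, with a median of 0.06. The 4 members with an unadjusted p under 0.05 (all genes, 4.67%) were all higher with duvelisib. CD79A, a signalling chain of the receptor, differed by 0.27, BTK, the target of ibrutinib, by 0.21, PLCG2, the phospholipase it activates, by 0.16, and RASGRP3, an activator of RAS, by 0.15. Of the 22 early genes induced through the receptor, 10 had a positive difference and the median was -0.02. MYC differed by 0.29 and FOS by -0.18, but the mean level of FOS was close to the array background (6.39 with duvelisib and 6.57 with idelalisib). Of 28 targets of FOXO, the factors that PI3K signalling keeps inactive, 12 had a positive difference, with a median of -0.03. FOXO1 itself differed by 0.18.

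The remaining lists moved little, and none held a called gene. Of all tested genes, 49.0% had a positive difference. Of 36 ribosome biogenesis genes, 33 had a positive difference, with a median of 0.07. The 3 with an unadjusted p under 0.05 (all genes, 4.67%), FBL, HEATR1 and RRS1, differed by 0.16, 0.17 and 0.22. The median of this list was 0.03 in RIVA, 0.07 in TMD8, 0.19 in SUDHL2 and 0.02 in U2932. Of 45 genes of G2 and mitosis, 8 had a positive difference, with a median of -0.06, and KIF11, a spindle motor, differed by -0.21. Their median was -0.09 in RIVA, -0.05 in TMD8, 0.002 in SUDHL2 and -0.04 in U2932. Of 37 interferon genes, 29 had a positive difference, with a median of 0.06. MX2 and GBP1, effectors against viruses and other pathogens, differed by 0.17 and 0.18. GBP1 means lay below the level that stands for detection in RIVA (6.22 with duvelisib, 6.23 with idelalisib) and U2932 (6.28 and 6.14). Of 29 chemokines, cytokines and their receptors, 22 had a positive difference, with a median of 0.08. LTB, lymphotoxin beta, differed by 0.37 and IL4R, a chain of interleukin receptors, by 0.26. Genes of 1 list share regulation and arrays, and the share of positive signs in a list was not tested.

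Genes of DNA synthesis, survival and stress gave smaller medians, again with no called gene. Of 36 genes of G1/S and replication, 25 had a positive difference (median 0.02), led by UNG, which removes uracil from DNA, at 0.24 and UHRF1, which helps maintain DNA methylation, at 0.19. Of 31 NF-kB targets, 22 were positive (median 0.05), with IRF4, a transcription factor on which activated B-cell-like lymphoma cells are known to depend, at 0.25. Of 17 members of the BCL2 family, 9 were positive (median 0.03), with the cell death promoters HRK at 0.25 and BID at 0.23. HRK means in SUDHL2 lay below the level that stands for detection (6.02 with duvelisib, 5.98 with idelalisib). Of 19 genes of the unfolded protein response, 11 were positive (median 0.01), with XBP1, its main transcription factor, at 0.19 and SYVN1, a ubiquitin ligase of the endoplasmic reticulum, at 0.27.

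Metabolic lists were close to even. Of 30 genes of cholesterol and fatty acid synthesis 18 were positive (median 0.02), of 25 glycolysis genes 14 (median 0.02), with the glycolytic enzymes ENO1 and TPI1 at 0.14 and 0.16, and of 29 targets of the stress factor ATF4 15 (median 0.02). Of 39 lysosome and autophagy genes 13 were positive (median -0.03), with ATG12, an autophagy conjugate, at -0.16 and CTSZ, a lysosomal protease, at 0.20. Of 23 heat shock chaperones 9 were positive (median -0.05), with HSPB1 at 0.11 and DNAJB1 at -0.14.

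**Figure D4:**
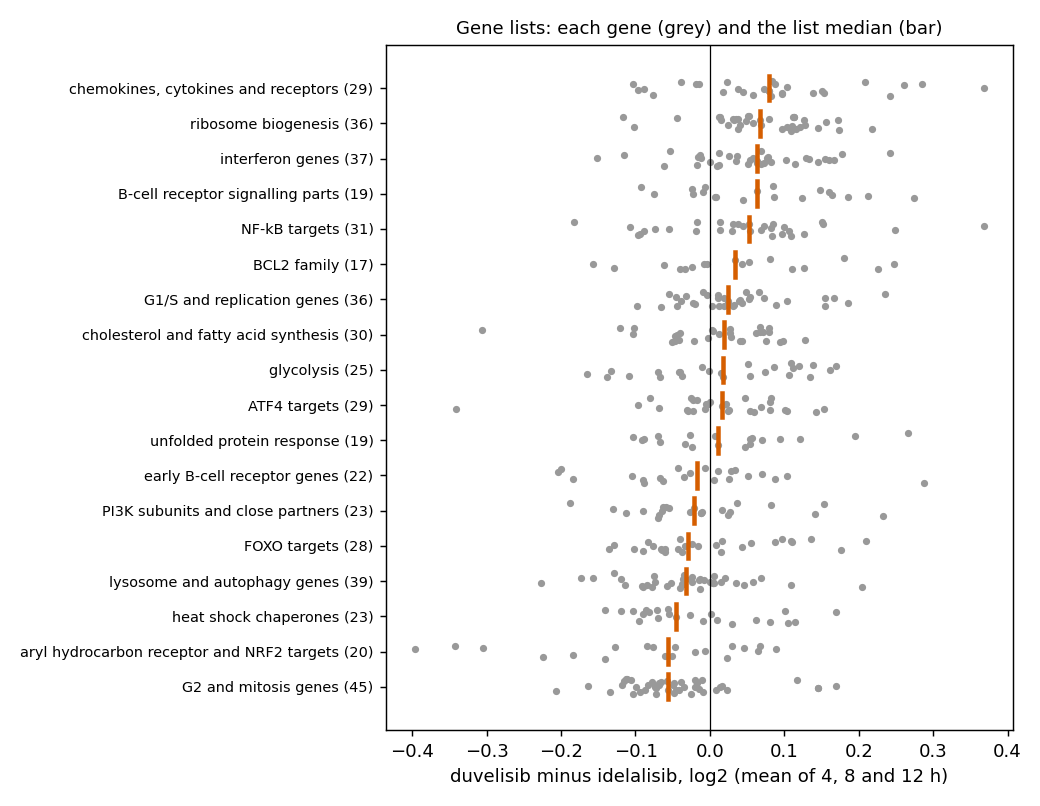
Duvelisib minus idelalisib (horizontal axis, log2, mean of 3 times and 4 lines) for each tested gene of 18 lists, with the number tested in brackets and the list median as an orange bar. List medians lie between -0.06 and 0.08.

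The list of aryl hydrocarbon receptor and NRF2 targets covers genes that deal with foreign compounds, oxidants and metals. It also holds metallothioneins, which are known for another factor, MTF1, described below. Of its 20 tested genes, 6 had a positive difference, with a median of -0.06. At an unadjusted p under 0.05 it held 7 genes, all lower with duvelisib (265 of all genes, 2.11%, were lower at that p). They were TIPARP, GCLM, a subunit of the enzyme of glutathione synthesis, and the metallothioneins MT1E, MT1F, MT1G, MT1X and MT2A, small proteins that bind zinc and copper. None passed after adjustment. Most of the 7 were metallothioneins, so the count does not describe aryl hydrocarbon receptor or NRF2 targets as such. The metallothionein genes share sequence and lie in 1 cluster, so their probes may share signal and they are not independent. They differed by -0.18 (MT1E), -0.14 (MT1F), -0.40 (MT1G), -0.30 (MT1X) and -0.34 (MT2A). In RIVA the MT1X and MT2A differences were -0.01 and 0.01, and in SUDHL2 they were -0.53 and -0.75. MT1X means in SUDHL2 were 10.19 for duvelisib, 10.72 for idelalisib and 10.41 for DMSO, and in TMD8 they were 9.96 for duvelisib, 10.30 for idelalisib and 9.69 for DMSO. In RIVA they were 7.67 for duvelisib, 7.68 for idelalisib and 7.80 for DMSO, and in U2932 8.35, 8.70 and 8.71 in the same order. The idelalisib mean was thus the highest of the 3 in SUDHL2 and TMD8 and the DMSO mean in RIVA and U2932.

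MT1G gave the largest difference in TMD8. With duvelisib at 4, 8 and 12 h its level was 8.00, 8.83 and 8.17 in TMD8 and 9.13, 9.20 and 9.18 in SUDHL2. With idelalisib it was 8.91, 9.50 and 8.85 in TMD8 and 9.86, 9.69 and 9.74 in SUDHL2. All 3 duvelisib arrays were below all 3 idelalisib arrays in both lines. In RIVA and U2932 MT1G was close to the level that stands for detection on all arrays, between 6.01 and 6.23 with duvelisib and between 5.99 and 6.48 with idelalisib, so that little can be read from these lines. The mean difference over the 4 lines was -0.40 (95% interval -0.67 to -0.12, adjusted p = 0.963, limma) and includes these 2 lines near background, as does the test between lines (adjusted p = 0.0168, limma's moderated F test), from which nothing is read here.

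Metallothionein promoters are known to bind the zinc-sensing factor MTF1 at metal response elements, whose core is written here as TGCACNC or TGCGCNC and was searched on both strands. The RefSeq promoters of the 2 metallothioneins in the table at hand are shown as the letters that belong to the values above, of which none passed the test, from 150 bases before the start of the gene up to it, with core matches in capitals (GRCh38.p14). MT1X lies at chr16:56682320-56682469 and MT2A at chr16:56608434-56608583, both on the plus strand.
MT1X: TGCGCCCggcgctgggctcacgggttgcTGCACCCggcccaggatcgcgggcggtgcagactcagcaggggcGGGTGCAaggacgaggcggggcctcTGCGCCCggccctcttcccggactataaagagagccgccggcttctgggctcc
MT2A: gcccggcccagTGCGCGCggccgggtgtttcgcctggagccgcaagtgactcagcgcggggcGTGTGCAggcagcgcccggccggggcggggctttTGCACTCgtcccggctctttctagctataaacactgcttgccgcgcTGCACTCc
Each held 4 matches. Of 35114 promoters of this length, 6018 (17.1%) held 1 or more and 1203 (3.43%) held 2 or more. A match describes the letters and not a bound site.

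At single times, no gene passed either. At 4 h, 0 of 12557 genes passed (0%, smallest adjusted p = 0.193, limma), with 1713 at an unadjusted p under 0.05 (13.6%), 1010 higher (8.04%) and 703 lower (5.60%). At 8 h 0 passed, with 494 at an unadjusted p under 0.05 (3.93%, of which 1.62% higher and 2.31% lower). At 12 h 0 passed, with 388 (3.09%, of which 1.55% higher and 1.54% lower). With p-values adjusted over genes and 3 times together, 0 passed and the smallest was 0.578. A difference of more than 0.5 log2 was seen for 86 genes at 4 h, 8 at 8 h and 1 at 12 h. The 95% interval lay within 0.5 log2 on either side of 0 for 90.7%, 92.0% and 98.0% of genes at the 3 times. The change of the difference between 12 and 4 h was tested itself and passed for 0 genes (smallest adjusted p = 0.115, limma), with 1291 at an unadjusted p under 0.05 (10.3%), 537 higher (4.28%) and 754 lower.

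Without TMD8, 87 genes passed at 4 h, 64 higher and 23 lower with duvelisib, and 25 passed for the change from 4 to 12 h. With TMD8 left in, none did, and leaving out any other line gave 0 at both. At 4 h the genes named were INTS1, FCRL2 and RHBDF2 as higher, by 0.65, 0.53 and 0.59, and DDX59, SELENOK and RPS26 as lower, by -1.23, -0.56 and -0.44. INTS1 is a subunit of the Integrator complex, FCRL2 a receptor of B cells, RHBDF2 a regulator of the protease that releases TNF, SELENOK a selenoprotein of the endoplasmic reticulum, and RPS26 a ribosomal protein.

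DDX59, an RNA helicase, had the lowest difference at 4 h. With duvelisib at 4 h its level was 7.52 in RIVA, 7.21 in TMD8, 8.49 in SUDHL2 and 6.79 in U2932. With idelalisib it was 9.06 in RIVA, 7.56 in TMD8, 9.96 in SUDHL2 and 8.36 in U2932. The gap at 4 h was -1.54, -1.46 and -1.57 in RIVA, SUDHL2 and U2932 and -0.34 in TMD8. At 8 h the differences in RIVA, TMD8, SUDHL2 and U2932 were -0.24, 0.95, -0.64 and 0.37. The DMSO arrays at 4 h were at 7.44, 7.61, 8.31 and 8.20 in the order RIVA, TMD8, SUDHL2 and U2932. The change from 4 to 12 h was 0.95 (95% interval 0.65 to 1.24, adjusted p = 0.115, limma).

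At 8 h the genes named as higher were MRPS18B, a mitochondrial ribosomal protein, at 0.47, and the ribosomal RNAs RNA28SN5 and RNA18SN5 at 0.57 and 0.73, and those named as lower were PPP1R15A, TUBG1 and CXXC1 at -0.55, -0.44 and -0.41. The ribosomal RNAs differed in sign between times, since RNA18SN5 differed by -0.70 at 4 h and -0.28 at 12 h, and RNA28SN5 by -0.40 and -0.09. Ribosomal RNA is not a polyadenylated message, and what its probes measure on these arrays was not tested. At 12 h the genes named were CLECL1, MYH11 and ETS1, a transcription factor of lymphocytes, as higher by 0.36, 0.41 and 0.47, and VAMP8, SNORD13 and BAMBI as lower by -0.40, -0.44 and -0.36. VAMP8 had the other sign at 4 h, with 0.21. In SUDHL2 the means of MYH11 (6.09 with duvelisib, 5.92 with idelalisib) and BAMBI (6.05 with both) lay below the level that stands for detection.

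The difference between duvelisib and idelalisib was not equal in the 4 lines. A moderated F test between lines on the 12 differences, with time in the model, called 760 genes (6.05%), and the lowest adjusted p was 0.0143. SUDHL2 was the line farthest from the other 3 in 654 of these (86.1%), against 45.9% of all genes. Of the 654, 477 were lower and 177 higher in SUDHL2 than in the other lines. TMD8 was farthest in 57, RIVA in 42 and U2932 in 7. The 3 times of a line stand as its replicates here and may share a culture, so that the p-values measure the spread between times. Without SUDHL2 0 genes were called, without RIVA 0, without TMD8 768 and without U2932 2462. The authors' normalized values gave 396 and intensities without background correction 397, so the count depends on single lines and on the processing.

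The 6 genes with the smallest p were GPSM3, B3GAT3, TCIRG1, STXBP2, CYB561A3 and PTPN6, with adjusted p of 0.0143 to 0.0168 (limma's moderated F test). Their differences in SUDHL2 were -1.03, -0.86, -0.84, -1.18, -0.73 and -1.04, while in the other lines they ran from -0.05 to 0.72. GPSM3 regulates G-protein signalling, B3GAT3 builds the linker of proteoglycans, TCIRG1 is a subunit of the vacuolar proton pump, STXBP2 serves granule release, and PTPN6 encodes SHP-1, a phosphatase that restrains the B-cell receptor.

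PTPN6 (probe ILMN_1738675) shows the pattern by array. The duvelisib arrays at 4, 8 and 12 h were at 8.24, 8.61 and 8.76 in SUDHL2, 6.64, 7.04 and 8.89 in RIVA, 8.18, 8.91 and 8.34 in TMD8, and 6.42, 6.36 and 6.74 in U2932. The idelalisib arrays were at 8.96, 9.90 and 9.86 in SUDHL2, 6.82, 6.56 and 8.32 in RIVA, 7.97, 8.42 and 8.11 in TMD8, and 6.68, 6.07 and 6.57 in U2932. In SUDHL2 every duvelisib array was below every idelalisib array, and in TMD8 each was above its partner. The SUDHL2 arrays with ibrutinib were at 8.89, 9.13 and 9.06 and those with DMSO at 9.63, 9.15 and 9.63.

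The 654 genes were described in each line and time, with no test, since they were chosen from these differences. The median difference of the 477 genes was -0.58, -0.67 and -0.55 in SUDHL2 at 4, 8 and 12 h, between 0.07 and 0.29 in RIVA and TMD8, and -0.41, 0.20 and 0.15 in U2932. U2932 at 4 h therefore lay on the side of SUDHL2. Against the DMSO arrays of SUDHL2, the median of the 477 genes was -0.46, 0.13 and -0.17 for duvelisib, 0.12, 0.82 and 0.39 for idelalisib and -0.09, 0.49 and -0.02 for ibrutinib at the 3 times. These 3 share the DMSO array of their time, so a value there moves all of them together. The idelalisib arrays were the highest of the 3 compounds at each time in SUDHL2. The median ibrutinib minus idelalisib of the same genes at 4, 8 and 12 h was -0.21, -0.34 and -0.40 in SUDHL2, 0.31, 0.24 and -0.21 in RIVA, 0.31, 0.30 and 0.26 in TMD8, and 0.25, 0.09 and 0.27 in U2932, so that RIVA at 12 h lay on the side of SUDHL2. Why the SUDHL2 pairs stood apart was not tested. With 1 array per compound and time, the response of the line and the handling of its arrays cannot be told apart.

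**Figure D5:**
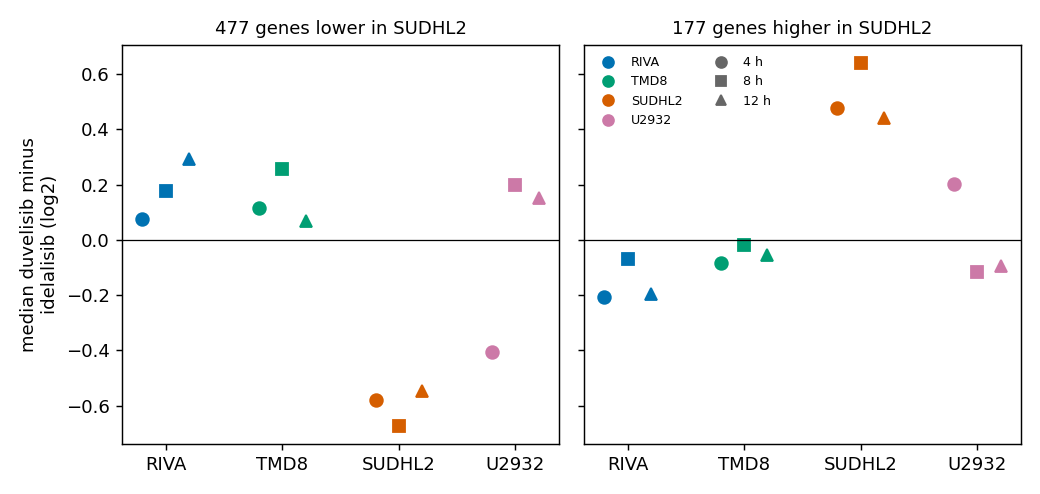
Median duvelisib minus idelalisib (vertical axis, log2) in each line and at each time (shape) of the 477 genes lower and the 177 genes higher in SUDHL2, among those called between lines. The SUDHL2 medians lie between -0.67 and -0.55 for the 477 genes and between 0.44 and 0.64 for the 177, and U2932 at 4 h lies on the same side.

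Within the lists, 7 of 30 genes of cholesterol and fatty acid synthesis (ACSS2, DHCR7, FADS2, LSS, MSMO1, MVD and MVK), 6 of 25 glycolysis genes (ALDOA, GPI, LDHB, PGAM1, PKM and SLC2A1) and 3 of 23 heat shock chaperones (FKBP4, HSPA4 and PTGES3) were among the 760, against 6.05% of all genes. Of 31 NF-kB targets, CD40, LTB, NFKB2 and RELB were among them. Their shares, 23.3%, 24% and 13.0% of the first 3 lists, were not tested.

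Genes past 0.5 log2 in the same direction at all 3 times in a line were counted as well. In SUDHL2 there were 29 higher (0.231%) and 212 lower (1.69%) with duvelisib. In RIVA there were 8 (0.0637%) and 3 (0.0239%), in TMD8 3 (0.0239%) and 4 (0.0319%), and in U2932 2 (0.0159%) and 0 (0%). The genes named in SUDHL2 were the chaperones HSPA4 and TCP1 and the ribosome biogenesis factor DCAF13 as higher, by 0.82, 0.88 and 0.75 on average, and BSG, a membrane glycoprotein that escorts lactate transporters, INO80E, a chromatin remodelling subunit, and PRRC2A as lower, by -1.46, -1.24 and -1.11. BSG was at 8.45, 9.45 and 9.67 with duvelisib, 10.20, 10.89 and 10.86 with idelalisib, 9.78, 10.16 and 9.97 with ibrutinib and 9.69, 9.50 and 9.93 with DMSO in SUDHL2 at 4, 8 and 12 h. HSPA4 differed by -0.15 in RIVA and by 0.00 in TMD8 and in U2932.

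The other lines each had a few such genes. In RIVA, FCGBP was higher by 1.01, 0.70 and 0.81 at 4, 8 and 12 h and RGS2, a regulator of G-protein signalling, lower, with -1.005, -0.73 and -0.63. In TMD8 the chemokine CXCL10 was higher by 0.71, 0.84 and 0.52. Its TMD8 levels at the 3 times were 9.04, 9.03 and 8.15 with duvelisib, 8.33, 8.19 and 7.63 with idelalisib, 9.10, 9.04 and 8.54 with ibrutinib and 9.92, 11.12 and 9.93 with DMSO. Duvelisib, idelalisib and ibrutinib each gave lower levels than DMSO, and idelalisib the lowest. In U2932 LTB was higher by 1.05, 0.60 and 0.65, and it was also higher in RIVA, by 0.69 on average, against -0.08 in TMD8 and 0.11 in SUDHL2. For LTB the difference between lines passed (adjusted p = 0.0185, limma's moderated F test). For CXCL10 the same test gave an adjusted p of 0.0202, but its mean level was 6.28 with duvelisib and 6.16 with idelalisib in RIVA and 6.44 and 6.47 in U2932, close to the level of 6.30 that stands for detection, so this compares lines where the gene was measured with lines where it was near background. KIAA0040 was higher by 0.62 in U2932, 0.52 in TMD8 and 0.45 in RIVA and differed by -0.07 in SUDHL2 (adjusted p = 0.0188 between lines, limma's moderated F test), where its level was near background.

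A further pair of genes can be named when SUDHL2 is left out, chosen after their values were seen. Over the 3 times of RIVA, TMD8 and U2932, KIAA0040 was higher with duvelisib by 0.53 and IGLL1, a chain of the pre-B-cell receptor, by 0.48 (adjusted p = 0.0321 for both, limma), and no other gene passed. Both were absent from the calls over 4 lines.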

How the data were processed

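Levels came from 60 bead arrays of RIVA, TMD8, SUDHL2 and U2932 (duvelisib, idelalisib, ibrutinib, PQR309 and DMSO at 3 times). The authors deposited unnormalized probe intensity and, separately, normalized log2 values, and GenomeStudio is named in the submitters' processing notes. The authors' deposited detection p-value was read for 3 arrays of another line (39.0% to 40.2% of probes detected). Raw and normalized values rank probes alike on all 24 arrays compared, so intensity was used. The raw DMSO and PQR309 arrays are other arrays than the normalized ones. Both entered the normalization and the fit of all 5 treatments, and the DMSO levels otherwise serve only as context. Per the labels' protocols RNA was column-extracted and biotin-labelled.

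Intensities were corrected with normexp (offset 50), quantile-normalized and log2-transformed in limma 3.58.1 (R 4.3.3). Of 47231 probes, 30113 carried 1 symbol in the platform annotation, 8 several and 17110 none. The brighter 50% were kept and each gene took its brightest probe. Differences of arrays paired by line and time were averaged over times and tested over 4 lines with lmFit and eBayes, two-sided, with Benjamini-Hochberg adjustment. The number of arrays limits the precision. Pairing is by cell line: deviations from group means correlated at 0.92 to 0.98 with the partner's own line and at most at -0.12 with another. Scripts were tested on simulated data. Named genes were, per comparison, those past the threshold by size and, since none passed, those with the smallest unadjusted p (10 each way over 3 times, 3 each way at single times and for 12 h less 4 h), the 6 smallest between lines, per line the 3 largest each way by their smallest difference over the times among genes of 1 sign, kinase and aryl hydrocarbon receptor genes, and the 2 smallest p of each list. The members, lists and tests were chosen with earlier results of these data known. Alternatives were the authors' table, other normalizations, filters, probe rules and models, and leaving out each line or time.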

Additional observations from a re-analysis of the deposited data

Results flagged for a closer look

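For 30 named genes the 4 line differences were screened for a line set apart from the rest, which chance gives for about 1 in 20 genes, and 2 met the criterion. ADTRP was higher with duvelisib by 0.386 in TMD8 and by 0.258 to 0.263 in the other lines, of which SUDHL2 lay near the level that stands for detection. PIK3CD differed by -0.0794 in SUDHL2 and by 0.311 to 0.381 in the other lines.

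The difference between duvelisib and idelalisib varied between lines for 760 genes (limma's moderated F test, 6.05% of those tested), but for 0 without SUDHL2 or without RIVA, and for 396 in the authors' normalized values and 397 without background correction. The 6 named genes of this comparison differed in SUDHL2 by -1.03 (GPSM3), -0.857 (B3GAT3), -0.836 (TCIRG1), -1.18 (STXBP2), -0.734 (CYB561A3) and -1.04 (PTPN6), against -0.05 to 0.72 in the other lines. B3GAT3 in TMD8 and PTPN6 in U2932 lay near the level that stands for detection.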

How the results depend on the processing

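No gene passed for duvelisib minus idelalisib over 3 times or at 8 h, except 2 at each without SUDHL2 (IGLL1 and KIAA0040 over 3 times, BLOC1S1 and PTPRCAP at 8 h, named after their values were seen; range 0 to 2 over the lines left out), and none at 12 h under any setting. The count was 0 to 87 at 4 h and 0 to 25 for 12 h less 4 h, both highest without TMD8. The comparison between lines gave 396 genes in the authors' normalized table, 397 without background correction, and 0 to 2462 on leaving out a line. Ibrutinib minus idelalisib gave 1 gene with 5 treatments fitted together (PPP1R15A), 2 with the line as a random block (PPP1R15A and TIPARP) and 0 to 6 on leaving out a line. Ibrutinib minus duvelisib gave 3 with the random block (MAP6D1, NAPSB and PPP1R15A), 344 without the 12 h arrays (288 higher, 56 lower) and 0 to 2 on leaving out a line. Without the pairing by line (no replicate block) 0 genes passed in every such comparison. The cause of these changes was not tested, and leaving out a line or time also leaves fewer samples. The 4 lines with 1 array each per time limit the precision: the median half-width of the 95% interval was 0.14 log2 over 3 times, 0.20 to 0.22 at single times and 0.25 for 12 h less 4 h.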
